A study of Homo sapiens with 4 samples.

Results

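The genes described here encode the proteins of the mitochondrial ribosome. They were chosen by symbol alone (MRPL or MRPS followed by a number and at most one letter from A to C), which took 77 of the 26485 gene identifiers in the deposited tables, 48 named MRPL for the large subunit and 29 named MRPS for the small subunit. RNA was sequenced from SW1736 and 8505C, 2 cell lines derived from anaplastic thyroid cancer, an undifferentiated tumour of the thyroid. The 4 groups were SW1736 cells given 1.5 µM DHT for 24 h, SW1736 cells given the vehicle DMSO for 24 h, 8505C cells given 1.5 µM DHT for 24 h and 8505C cells given DMSO for 24 h. DHT stands here for dihydrotanshinone, a compound of Salvia root, not for the androgen. Each group was 1 library, and differences within a line carry no replicate check and no test of their own.

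Mitochondria keep ribosomes of their own, which descend from those of a bacterial ancestor and make the few respiratory chain proteins that mitochondrial DNA encodes. All their proteins are encoded in the nucleus, made in the cytosol and imported, and they assemble on ribosomal RNAs transcribed from mitochondrial DNA. Many have a bacterial counterpart, and others are found only in mitochondrial ribosomes. Dividing tumour cells express these genes at high levels, and they are commonly counted among housekeeping genes.

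Levels are the deposited TPM (transcripts per 1000000, scaled by transcript length), and differences are those of log2(TPM + 1). Members were compared with 11706 protein-coding genes whose level averaged at least 1 TPM, called the tested genes. All 77 members passed that filter. The aligned depth was 3.27 to 4.15 Gb per library, and the member with the least coverage was still read 18.2 times over, on average, in its lowest library (MRPL19 in SW1736 with DHT). Against the cell type label, TG and TSHR, which mark differentiated thyroid cells, stood at or near 0 TPM in all 4 libraries, while PAX8 was found in SW1736 and NKX2-1 in 8505C. Immune and fibroblast markers were below 0.4 TPM throughout. Of the endothelial genes, CDH5 and TIE1 were found in 8505C (128 and 43.4 TPM with DMSO) and listed at 0 in both SW1736 libraries. PECAM1, also endothelial, had only 0.21 TPM in 8505C with DHT and 0.18 with DMSO, and KDR stood at 0 in all 4 libraries. Among epithelial genes, EPCAM and CDH1 reached 0.18 TPM at most (EPCAM in 8505C with DMSO). The listed keratins, KRT7, KRT8 and KRT18, had 403 TPM or more (least for KRT18 in SW1736 with DHT). In bulk libraries, fewer cells of a kind and less of an mRNA per cell cannot be told apart.

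Upstream sequences are shown first, because many members carried the same short element close to the start of transcription. Of the 77 members, 69 had a promoter window in the RefSeq table for GRCh38.p14, running from 250 bases before to 50 bases after the start. The ETS core CCGGAAG, which GABP (also called NRF-2, a known activator of nuclear genes for mitochondrial proteins) and other ETS factors bind, was found on either strand in at least 1 window of 29 of the 69 members (42.0%), against 23.6% of tested genes and 12.2% of all genes in the table. The 4 stretches below are the 150 bases before the start, 5′ to 3′ on the strand of the gene, with the ETS core or its reverse complement in capitals. They were taken from members that lay near the ends of the 2 comparisons described further on and that held the core.
MRPS31 (chr13:40771191-40771340, minus strand): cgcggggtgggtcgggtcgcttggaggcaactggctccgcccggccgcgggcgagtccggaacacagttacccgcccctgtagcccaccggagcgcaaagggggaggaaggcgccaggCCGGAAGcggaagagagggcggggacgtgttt
MRPL54 (chr19:3762532-3762681, plus strand): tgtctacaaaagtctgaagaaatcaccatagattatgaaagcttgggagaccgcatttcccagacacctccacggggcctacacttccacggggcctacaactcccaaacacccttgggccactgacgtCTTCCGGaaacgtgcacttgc
MRPS18A (chr6:43687792-43687941, minus strand): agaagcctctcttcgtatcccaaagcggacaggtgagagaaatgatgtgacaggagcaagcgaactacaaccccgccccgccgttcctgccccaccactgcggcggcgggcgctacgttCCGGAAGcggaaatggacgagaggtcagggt
MRPL43 (chr10:100987498-100987647, minus strand): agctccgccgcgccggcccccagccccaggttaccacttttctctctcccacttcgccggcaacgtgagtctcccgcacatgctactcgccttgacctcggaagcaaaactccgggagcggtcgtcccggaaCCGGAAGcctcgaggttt

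The gene bounds in the deposited tables reach 15 to 22 bases further upstream than these RefSeq starts. In the 4 stretches the core began 32 bases before the RefSeq start in MRPS31, 31 in MRPS18A, 21 in MRPL54 and 18 in MRPL43. The 50 bases next to the start held the core in 18 of 69 members (26.1%), against 9.55% of tested genes. The stretch from 250 to 51 bases before the start held it in 11.6% of members, against 11.8% of tested genes. The YY1 element GCCATNTTG was found in 14 members (20.3%, against 6.74% of tested genes), and 12 of them held it within the 50 bases after the start (17.4%, against 4.04%). The NRF1 core CGCANGCG was found in 15 members (21.7%, against 22.8% of tested genes), the GC box GGGCGG in 42 (60.9%, against 78.4%) and the E-box CACGTG in 10 (14.5%, against 12.7%). Matches were sought on both strands, and matches of different elements were counted separately where they overlapped. Members with and without the ETS core had median differences of -0.13 and -0.16 between DHT and DMSO in SW1736, and of 0.04 and 0.10 between the lines with DMSO. For the YY1 element these were -0.30 and -0.13, and 0.34 and 0.06. For the GC box they were -0.13 and -0.17, and -0.09 and 0.32. Whether any element bears on the differences was not tested.

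The first question was how much of the mRNA pool these genes made up in each library. Their TPM summed to 7894 in SW1736 with DHT and 8524 in SW1736 with DMSO, and to 9102 in 8505C with DHT and 9079 in 8505C with DMSO. As shares of all TPM these were 0.789% in SW1736 with DHT and 0.852% with DMSO, and 0.910% in 8505C with DHT and 0.908% with DMSO. The sum was thus lowest in SW1736 with DHT and nearly equal in the 8505C libraries. The median member stood at 83.9 TPM in SW1736 with DHT, 85.0 in SW1736 with DMSO, 98.9 in 8505C with DHT and 99.96 in 8505C with DMSO. In SW1736 with DMSO the median cytosolic ribosomal protein gene stood at 1929 TPM and the median nuclear gene of oxidative phosphorylation at 205 TPM, so by median TPM, a level per length, the members were the least abundant of these 3 sets.

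Most of these proteins are known to occur as single copies in the particle, while their mRNA levels differed widely. MRPL51, a large-subunit protein without a bacterial counterpart, had 315 TPM in SW1736 with DHT and 489 with DMSO, and 396 TPM in 8505C with DHT and 399 with DMSO. MRPS24, the counterpart of bacterial S3 near the entry of the mRNA channel, had 498 TPM in SW1736 with DHT and 441 with DMSO, and 241 TPM in 8505C with DHT and 227 with DMSO. These were the 2 most abundant members by mean, and both SW1736 libraries lay above both 8505C libraries for MRPS24. They were followed by MRPL12, which forms the flexible stalk and is present in several copies, MRPL33 and MRPL41. The least abundant were MRPL19, at 9.23 TPM in SW1736 with DHT, 15.2 with DMSO, 19.7 in 8505C with DHT and 21.05 with DMSO, and then MRPL35, MRPS25, MRPS14 and MRPL42.

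The order of the members hardly differed between treatments of 1 line and differed more between the lines. Across the 77 genes, Spearman's rho of the levels was 0.962 between DHT and DMSO in SW1736 and 0.991 in 8505C, against 0.773 between the lines with DMSO and 0.752 with DHT. Genes are not independent replicates, so these are descriptions.

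**Figure D1:**
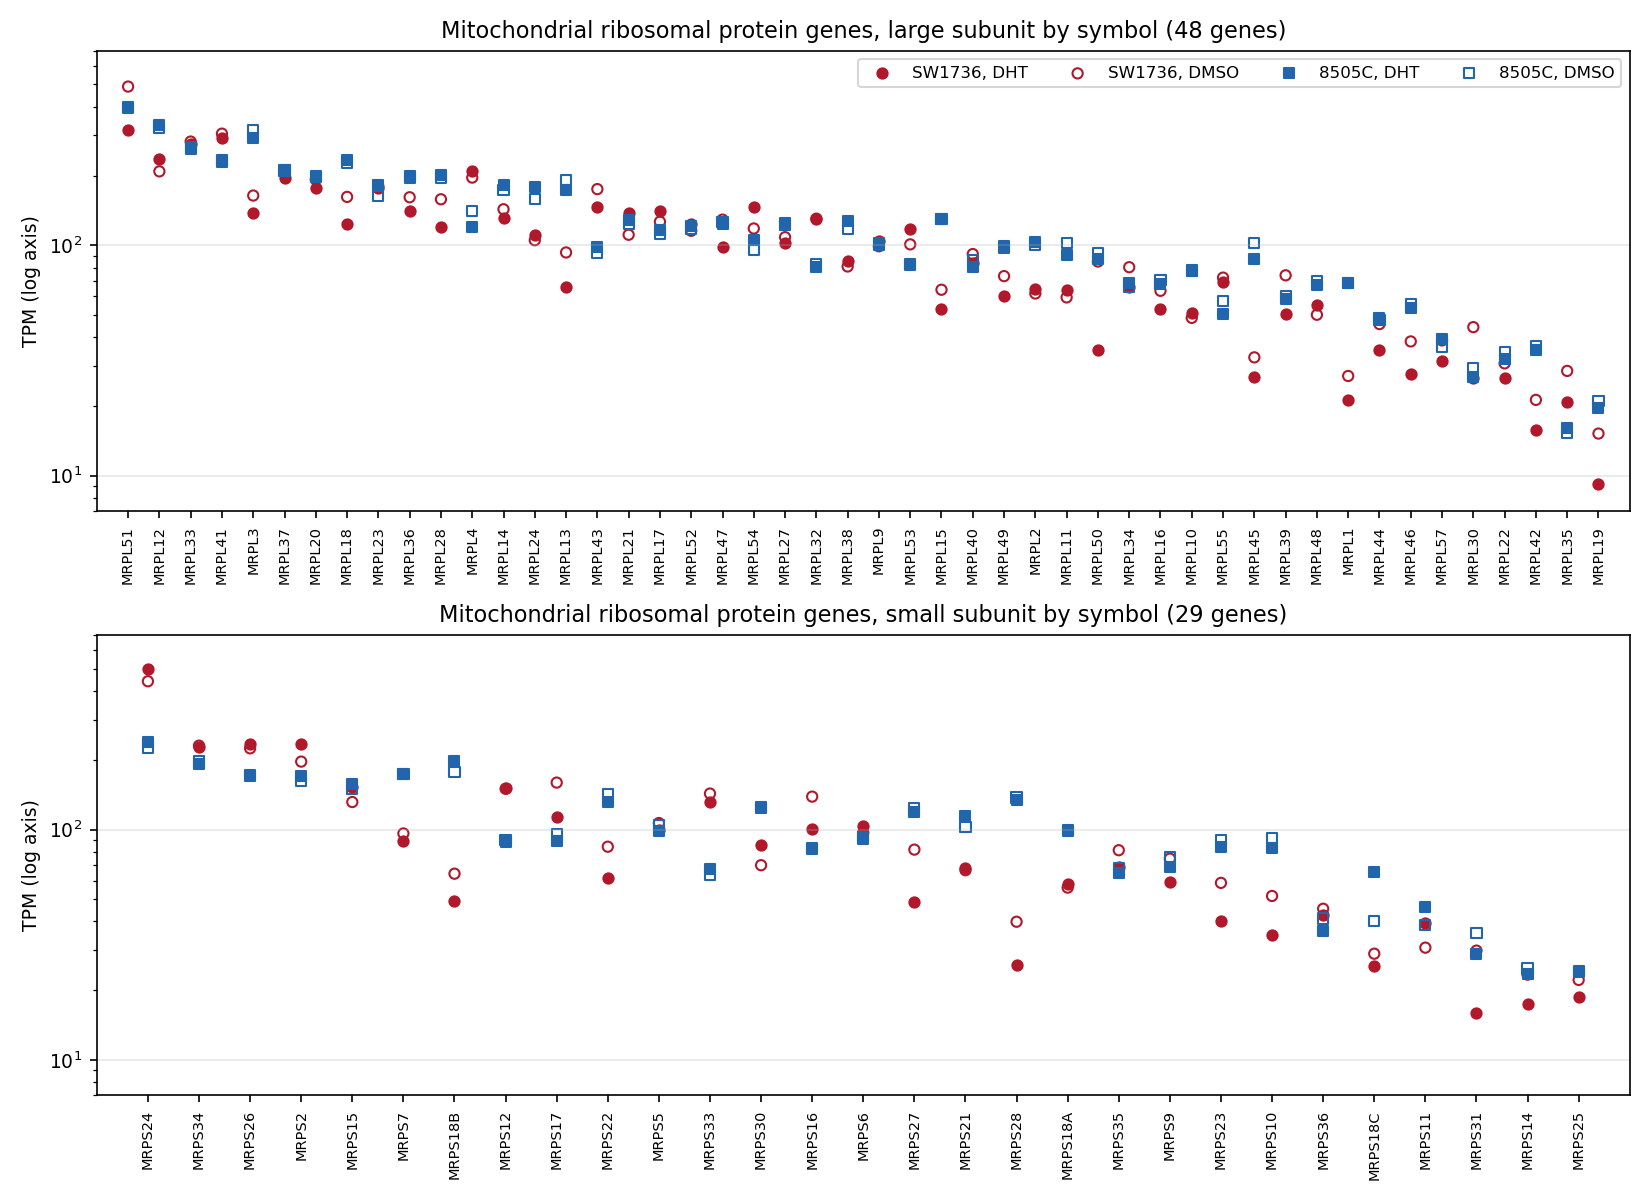
TPM (log axis) of each of the 48 MRPL genes (top) and 29 MRPS genes (bottom), ordered by mean TPM, in SW1736 (circles) and 8505C (squares) with DHT (filled) and DMSO (open), 1 library each. Filled and open squares nearly coincide, whereas circles and squares are apart for genes such as MRPL45, MRPS28 and MRPS24.

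The balance of the subunits was taken as the summed TPM of MRPL genes over that of MRPS genes. The ratio was 1.72 in SW1736 with DHT and 1.81 in SW1736 with DMSO, and 1.96 in 8505C with DHT and 1.98 in 8505C with DMSO. Symbols do not give the place of every protein. MRPS18A and MRPS30 sit in the large subunit, and MRPS36 is now known as KGD4, a subunit of the oxoglutarate dehydrogenase complex rather than of the ribosome. With the first pair moved and MRPS36 left out, the ratios were 1.89 in SW1736 with DHT and 1.97 with DMSO, and 2.22 in 8505C with DHT and 2.24 with DMSO. By symbol, over the 70 members with 1 locus and no overlap on the same strand, which leave out MRPS24, the lines lay closer. Those ratios were 2.11 in SW1736 with DHT and 2.15 with DMSO, and 2.18 in 8505C with DHT and 2.17 with DMSO. MRPS18A had 58.2 TPM in SW1736 with DHT and 55.9 with DMSO, and 98.6 TPM in 8505C with DHT and 99.7 with DMSO. MRPS30 had 85.3 TPM in SW1736 with DHT and 70.0 with DMSO, and 126 TPM in 8505C with DHT and 124 with DMSO. MRPS36 had 42.7 TPM in SW1736 with DHT and 45.3 with DMSO, and 36.1 TPM in 8505C with DHT and 41.1 with DMSO. MRPS18A and MRPS30 thus stood lower in both SW1736 libraries than in both of 8505C.

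In SW1736, DHT went with little difference in these genes beside the rest of the transcriptome. The members' median difference, DHT minus DMSO, was -0.13 on the TPM scale, against -0.42 for all tested genes, and 61 of 77 members lay above that median. None was at least 1.5-fold higher, where 4.7% of tested genes were, and 7 were at least 1.5-fold lower, where 38.2% of tested genes were. The direction depended on the scale: the members' median was 0.09 in FPKM (all tested genes -0.20) and 0.29 when the comparison was centred on the median of all tested genes. The deposited FPKM summed to 511866 in SW1736 with DHT, against 438583 in SW1736 with DMSO, and to 444082 in 8505C with DHT, against 437144 in 8505C with DMSO. Cytosolic ribosomal protein genes took 22.4% of TPM in SW1736 with DHT and 17.05% with DMSO. With TPM rescaled without these genes, the members summed to 10176 TPM in SW1736 with DHT and 10276 with DMSO.

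The members stood between the sets most like them and the rest. Of 79 cytosolic ribosomal protein genes the median difference in SW1736 was 0.38, and of 77 nuclear genes of oxidative phosphorylation it was -0.02. Among the mitochondrial ribosomal proteins the median was -0.12 for the 30 large-subunit genes with a bacterial counterpart and -0.10 for the 16 such genes of the small subunit. For the 18 large-subunit genes without one it was -0.26, and for the 10 of the small subunit -0.31. The 4 classes overlapped, with ranges from -0.71 to 0.32, -0.61 to 0.34, -1.25 to 0.31 and -0.85 to 0.07 in that order.

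**Figure D2:**
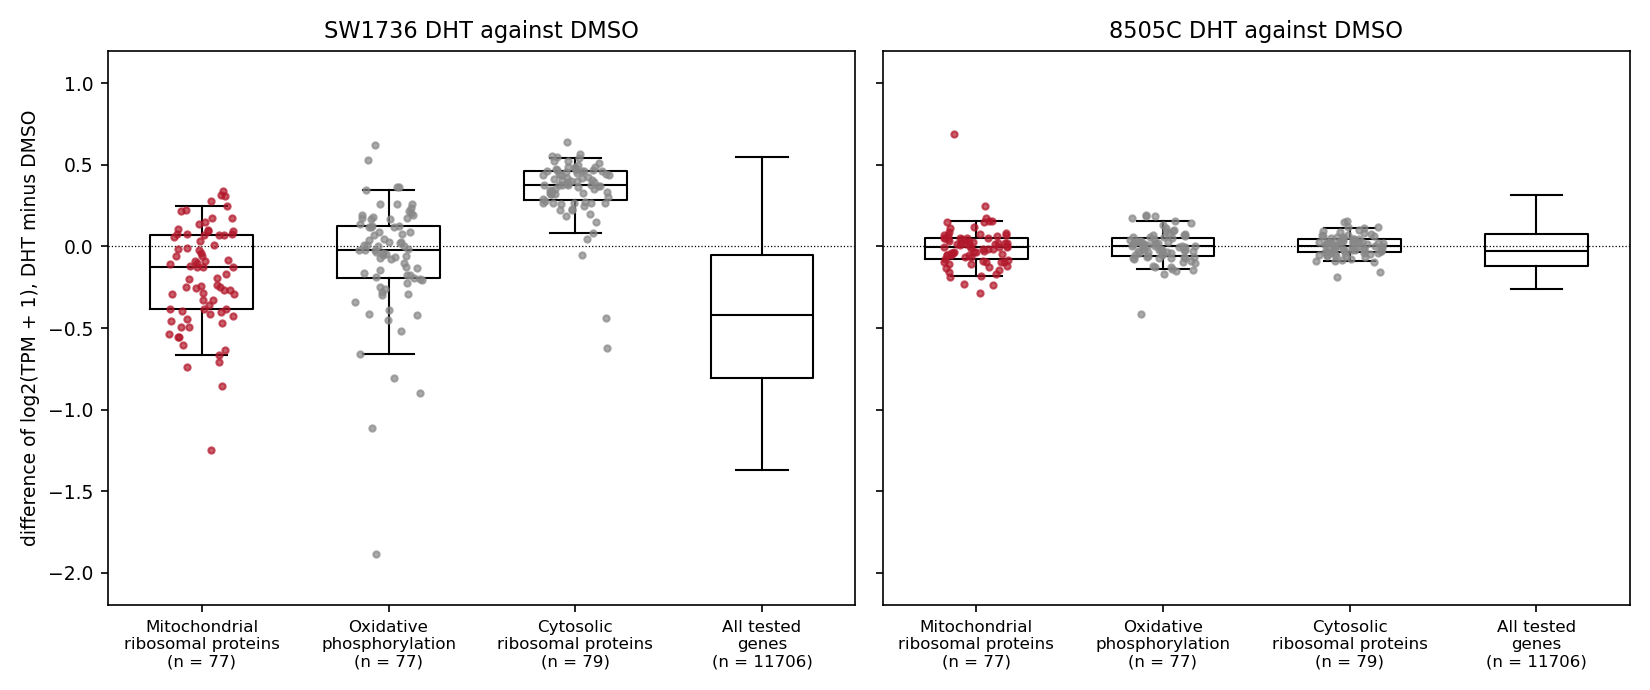
Difference of log2(TPM + 1), DHT minus DMSO, in SW1736 (left) and 8505C (right) for mitochondrial ribosomal protein genes, nuclear oxidative phosphorylation genes, cytosolic ribosomal protein genes and all tested genes. Points are genes, boxes show the quartiles and median, and whiskers the 5th to 95th percentile. In SW1736 the members' median is -0.13, between 0.38 for cytosolic ribosomal proteins and -0.42 for all tested genes, and in 8505C all 4 medians are near 0.

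MRPL50 had the lowest difference in SW1736. This large-subunit gene without a bacterial counterpart (chr9:101389967-101398637, minus strand, hg38) had 35.3 TPM with DHT and 85.0 with DMSO, a difference of -1.25, at a mean coverage of 69.5 with DHT and 137 with DMSO. In 8505C it had 86.8 TPM with DHT and 92.9 with DMSO, a difference of -0.10. SW1736 with DHT was thus the 1 low library of the 4. MRPL50 was the only member past 2-fold with DHT in either line, where 1823 of 11706 tested genes were at least 2-fold lower in SW1736.

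The others at least 1.5-fold lower in SW1736 with DHT belonged to both subunits. MRPS31, a small-subunit protein without a bacterial counterpart, had 16.03 TPM with DHT and 29.8 with DMSO (-0.85). MRPS27, a small-subunit protein with pentatricopeptide repeats, a fold that binds RNA, had 48.6 TPM with DHT and 81.8 with DMSO (-0.74). Both were more abundant in the 8505C libraries than in SW1736 with DHT. MRPL30 had 26.6 TPM with DHT and 44.1 with DMSO (-0.71), and MRPL19 had 9.23 TPM with DHT and 15.2 with DMSO (-0.66), both of them counterparts of bacterial proteins of the same number. MRPL51, the most abundant of the 7, had 315 TPM with DHT and 489 with DMSO (-0.63). MRPS28, the counterpart of bacterial S1, had 25.8 TPM with DHT and 39.8 with DMSO (-0.61).

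At the other end, no member reached 1.5-fold. MRPS11, the counterpart of bacterial S11, had 39.1 TPM in SW1736 with DHT and 30.7 with DMSO (0.34), and it was also among the highest in 8505C, with 45.9 TPM with DHT and 38.6 with DMSO (0.25). MRPL21 had 139 TPM with DHT and 111 with DMSO in SW1736 (0.32), and MRPL54 had 147 TPM with DHT and 118 with DMSO (0.31). MRPS30 (0.28) and MRPS2 (0.25, 235 TPM with DHT and 197 with DMSO) completed the 5 highest. Members within 1.2-fold numbered 43 of 77 in SW1736, where 3398 of the 11706 tested genes were. Above 0 were 24 of the 77 members, where 2435 of the 11706 tested genes were. With each comparison centred on all tested genes, 9 members passed 1.5-fold upwards and 1 downwards. The share of tested genes past 1.5-fold on that scale was not computed.

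In SW1736 the members' differences followed the base composition of their mRNAs. Spearman's rho with the GC content of the mRNA was 0.58 across the 77 members and 0.27 across all tested genes with a known mRNA. In the tercile of tested genes with the lowest GC content, below 46.2%, the 24 members had a median of -0.39, against -0.60 for all tested genes of that tercile, and 4 were at least 1.5-fold lower, where 50.98% of the tested genes were. In the middle tercile the 29 members had a median of -0.12, against -0.42, and 3 were at least 1.5-fold lower, where 38.7% of the tested genes were. In the tercile with the highest GC content, above 55.7%, the 24 members had a median of 0.03, against -0.24, and none was at least 1.5-fold lower, where 25.1% of the tested genes were. The members' median thus lay above that of the tested genes in each tercile. MRPL50 and MRPL30 had a GC content of 34.96% and 35.6%, and MRPL54 and MRPS2 of 65.4% and 60.5%.

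Length was less related to the difference. Member mRNAs were short, with a median of 922 bases against 1509 for tested genes, and rho with length was -0.07 among members and -0.20 among tested genes. The 39 members among the shortest tercile had a median of -0.17 (tested genes -0.32) and the 35 in the middle tercile had -0.11 (tested genes -0.33). MRPL50, at 3332 bases, was one of only 3 members in the longest tercile. The part of base composition and length in the differences was not tested.

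**Figure D3:**
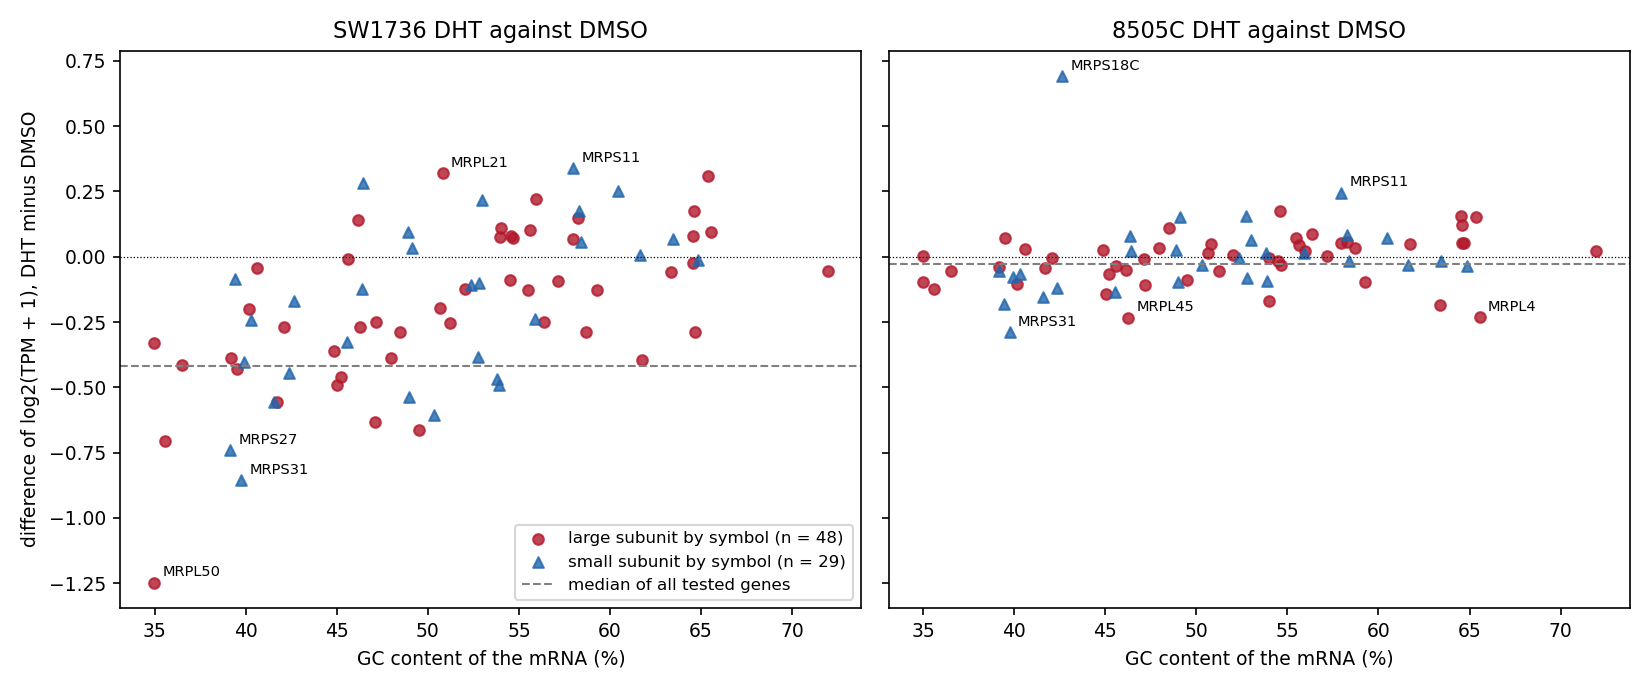
Difference of log2(TPM + 1), DHT minus DMSO, of each member against the GC content of its mRNA in percent, in SW1736 (left) and 8505C (right), with the median of all tested genes as a dashed line. In SW1736 the low-GC members lie lower, with Spearman's rho 0.58 over 77 genes, and in 8505C all but MRPS18C and a few others lie close to 0.

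In 8505C the same treatment left the members almost where they were. Their median difference was -0.003, against -0.03 for all tested genes, and 75 of 77 lay within 1.2-fold, where 88.1% of tested genes did. One member, MRPS18C, was at least 1.5-fold higher, where 1.26% of tested genes were, and none was at least 1.5-fold lower, where 0.538% were. The SD of the differences over the 77 genes was 0.128, against 0.305 in SW1736. Cytosolic ribosomal protein genes and oxidative phosphorylation genes had medians of 0.006 and 0.001.

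MRPS18C (chr4:83455932-83461723, plus strand) is 1 of 3 human paralogs of bacterial S18 and takes the place of S18 in the small subunit. It had 65.2 TPM in 8505C with DHT and 40.0 with DMSO (0.69), at a mean coverage of 117 with DHT and 55.8 with DMSO. In SW1736 it had 25.6 TPM with DHT and 28.9 with DMSO (-0.17). 8505C with DHT was thus the 1 high library of the 4. The gene overlaps FAM175A on the other strand in the deposited tables, and whether the counting used strand is not given in the sources used here. Its paralog MRPS18B, also of the small subunit, had 199 TPM in 8505C with DHT and 178 with DMSO (0.16), and MRPS18A had 98.6 TPM with DHT and 99.7 with DMSO (-0.02).

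At the lower end, no member reached 1.5-fold in 8505C. MRPS31 had 28.9 TPM with DHT and 35.5 with DMSO (-0.29), which made it the lowest in 8505C and the next to lowest in SW1736. MRPL45, which holds the ribosome to the inner membrane near the exit of the nascent chain, had 86.8 TPM with DHT and 102 with DMSO (-0.23). MRPL4, the counterpart of bacterial L4, had 120 TPM with DHT and 141 with DMSO (-0.23), and MRPL55 and MRPS36 each had -0.18. After MRPS18C and MRPS11 the highest were MRPL24 (0.18), MRPS18B (0.16) and MRPL23 (0.16). MRPL23 is listed at 2 loci, on chromosome 11 and on an unlocalised scaffold of it, whose values were summed, and reads of such copies may be split between them.

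No member was 1.5-fold apart with DHT in the same direction in both lines, and none was at least 1.2-fold higher in one line and at least 1.2-fold lower in the other. Across the 77 members the differences of the 2 lines had a Spearman's rho of 0.43 and a Pearson's r of 0.34, a description in which GC content is shared (rho with GC in 8505C was 0.39 among members and 0.44 among tested genes). A limma fit over all 4 libraries, with terms for line and treatment, took the lines as replicates of the treatment with 1 residual degree of freedom. It called no member for treatment, while it called 1.02% of tested genes. The lowest adjusted p of a member was 0.443 (Benjamini-Hochberg), for MRPL50, with a mean difference of -0.67. Its differences were far apart, at -1.25 in SW1736 and -0.10 in 8505C. The prior degrees of freedom of the fit were infinite, so the fitted SE of 0.27 comes from the trend over all tested genes and not from MRPL50 itself. MRPL50 was also the 1 member of 77 with an unadjusted p under 0.05 in that limma fit, where 788 of the 11706 tested genes had one.

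The lines themselves differed more in these genes than the treatments did. With DMSO, the members' median difference, 8505C minus SW1736, was 0.13, against -0.05 for all tested genes. At least 1.5-fold higher in 8505C were 21 members, where 18.9% of tested genes were, and 8 were at least 1.5-fold lower, where 24.2% were. With DHT the median was 0.31, against 0.37 for all tested genes, and 26 members were higher, where 40.9% of tested genes were, and 5 lower, where 17.1% were. Centred on all tested genes, the median with DHT was -0.07, with 15 members higher and 18 lower, a scale on which no share of tested genes was computed. The SD over members was 0.600 with DMSO and 0.695 with DHT. The pair with DHT holds the SW1736 library that also gives the treatment difference, so members low there, such as MRPL50 (1.28 with DHT, 0.13 with DMSO), stood higher in 8505C in that pair.

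In both pairs, which share no library, 18 members were at least 1.5-fold higher in 8505C, where 17.1% of tested genes were. Another 4 were at least 1.5-fold lower, where 13.7% of tested genes were (8 members when centred, a scale on which no share was computed). Across members, the differences of the pairs had a Pearson's r of 0.91. The higher members came from all parts of the particle. Of the large subunit they were MRPL1 of the L1 stalk, MRPL2 and MRPL3, counterparts of the bacterial proteins around the peptidyl transferase centre, MRPL10, which anchors the MRPL12 stalk, and MRPL13, MRPL15, MRPL24, MRPL42 and MRPL45, with MRPS18A. Of the small subunit they were MRPS7, MRPS10, MRPS18B, MRPS21, MRPS22, MRPS23, MRPS27 and MRPS28. The 4 lower were MRPL32, a protein known from yeast and mouse to be matured by proteolysis after import, MRPS12, the counterpart of bacterial S12 at the decoding centre, MRPS24 and MRPS33.

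MRPS28 differed most between the lines. It had 138 TPM in 8505C with DMSO and 39.8 in SW1736 with DMSO (1.77), and 135 TPM in 8505C with DHT and 25.8 in SW1736 with DHT (2.34). MRPL45 (chr17:38297023-38323218, plus strand) had 102 TPM in 8505C and 32.6 in SW1736 with DMSO (1.62), and 86.8 TPM in 8505C and 26.9 in SW1736 with DHT (1.65). MRPS18B (chr6:30617709-30626397, plus strand) had 178 TPM in 8505C and 64.3 in SW1736 with DMSO (1.46), and 199 TPM in 8505C and 49.1 in SW1736 with DHT (2.00). In each of these 3 members the 8505C libraries lay above both SW1736 libraries, with no overlap. MRPL45 and MRPS18B are also listed on alternate scaffolds, at 0 TPM in all 4 libraries. How reads of such copies were divided is not given in the sources used here. MRPL1 had 68.5 TPM in 8505C and 27.1 in SW1736 with DMSO (1.31), and MRPL13 had 192 TPM in 8505C and 93.1 in SW1736 (1.04).

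At the lower end, MRPS33 (chr7:141006161-141014981, minus strand), a small-subunit protein without a bacterial counterpart, had 63.5 TPM in 8505C and 143 in SW1736 with DMSO (-1.16), and 67.1 TPM in 8505C and 131 in SW1736 with DHT (-0.96). MRPS24 (chr7:43866558-43869546, minus strand) had 227 TPM in 8505C and 441 in SW1736 with DMSO (-0.95), and 241 TPM in 8505C and 498 in SW1736 with DHT (-1.04). It overlaps the readthrough gene URGCP-MRPS24 on the same strand, which had 3.05 TPM in 8505C and 5.73 in SW1736 with DMSO. Both SW1736 libraries lay above both 8505C libraries for each of these. MRPL43 had 92.8 TPM in 8505C and 175 in SW1736 with DMSO (-0.91), MRPL35 had 15.3 TPM in 8505C and 28.5 in SW1736 (-0.85) and MRPS16 had 82.0 TPM in 8505C and 139 in SW1736 (-0.75). With DHT all 3 were within 1.5-fold (-0.57 for MRPL43, -0.35 for MRPL35, -0.27 for MRPS16). MRPL43 overlaps SEMA4G on the other strand, and its coverage was low for its TPM, at 26.4 in 8505C and 56.6 in SW1736 with DMSO.

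The limma fit, which took the treatments as replicates of the line, called 29 members at an adjusted p under 0.05, 23 higher and 6 lower in 8505C, where it called 31.5% of tested genes. MRPS28 had the lowest adjusted p (1.66e-12, Benjamini-Hochberg, mean difference 2.05), and MRPS24 was lower with an adjusted p of 2.43e-06. The prior degrees of freedom of this fit were infinite, so its p-values take the spread as known. Without the mean-variance trend, with finite prior degrees of freedom (18.96), it called 10 members and 3151 of the 11706 tested genes.

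With DMSO, the members' line differences went with the chromosome on which each gene lies. With DHT the median of all tested genes was 0.37, and no correlation over chromosomes was computed for that pair. All 6 members on chromosome 6 were higher in 8505C in both pairs (medians 0.75 with DMSO and 0.83 with DHT), where the other tested genes of that chromosome had medians of 0.42 and 0.83. Of those other genes, 75.3% with DMSO and 79.8% with DHT were higher. All 7 on chromosome 17 were higher in both pairs (0.62 and 0.59, other genes 0.44 and 0.86), as were all 3 on chromosome 8, MRPL13, MRPL15 and MRPS28 (1.04 and 1.39, other genes 0.58 and 0.91). Other genes higher with DMSO and with DHT were 77.9% and 83.2% on chromosome 17, and 76.4% and 84.6% on chromosome 8. All 4 on chromosome 7, MRPL32, MRPS17, MRPS24 and MRPS33, were lower in both pairs (-0.85 and -0.82, other genes -0.63 and -0.27). Only 15.4% of the other genes there were higher with DMSO, and 37.95% with DHT. On chromosome 19 all 4 were lower with DMSO (-0.39, other genes -0.57) and 3 of 4 with DHT. Of its other genes, 15.5% were higher with DMSO and 40.7% with DHT. Chromosomes 1 and 2, with 8 members each, had member medians of 0.06 and -0.06 with DMSO (other genes -0.007 and -0.07) and of 0.14 and -0.002 with DHT (other genes 0.41 on both). On chromosome 9 the 3 members had a median of -0.28 with DMSO (other genes -0.10) and of -0.32 with DHT (other genes 0.35).

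Over the 12 chromosomes with at least 3 members, the members' median and that of the other tested genes with DMSO had a Pearson's r of 0.95 and a Spearman's rho of 0.97, a description over chromosomes measured in the same libraries. Taken relative to the other tested genes of its chromosome, the SD of the members' differences was 0.380 in place of 0.600 with DMSO, and 0.490 in place of 0.695 with DHT. The counts at 1.5-fold were then 11 higher and 1 lower with DMSO, and 7 higher and 10 lower with DHT, and no share of tested genes was computed beside them. The median with DHT was -0.17 on that scale, against 0.31 as deposited. This way of taking the difference was chosen after the data were seen.

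**Figure D4:**
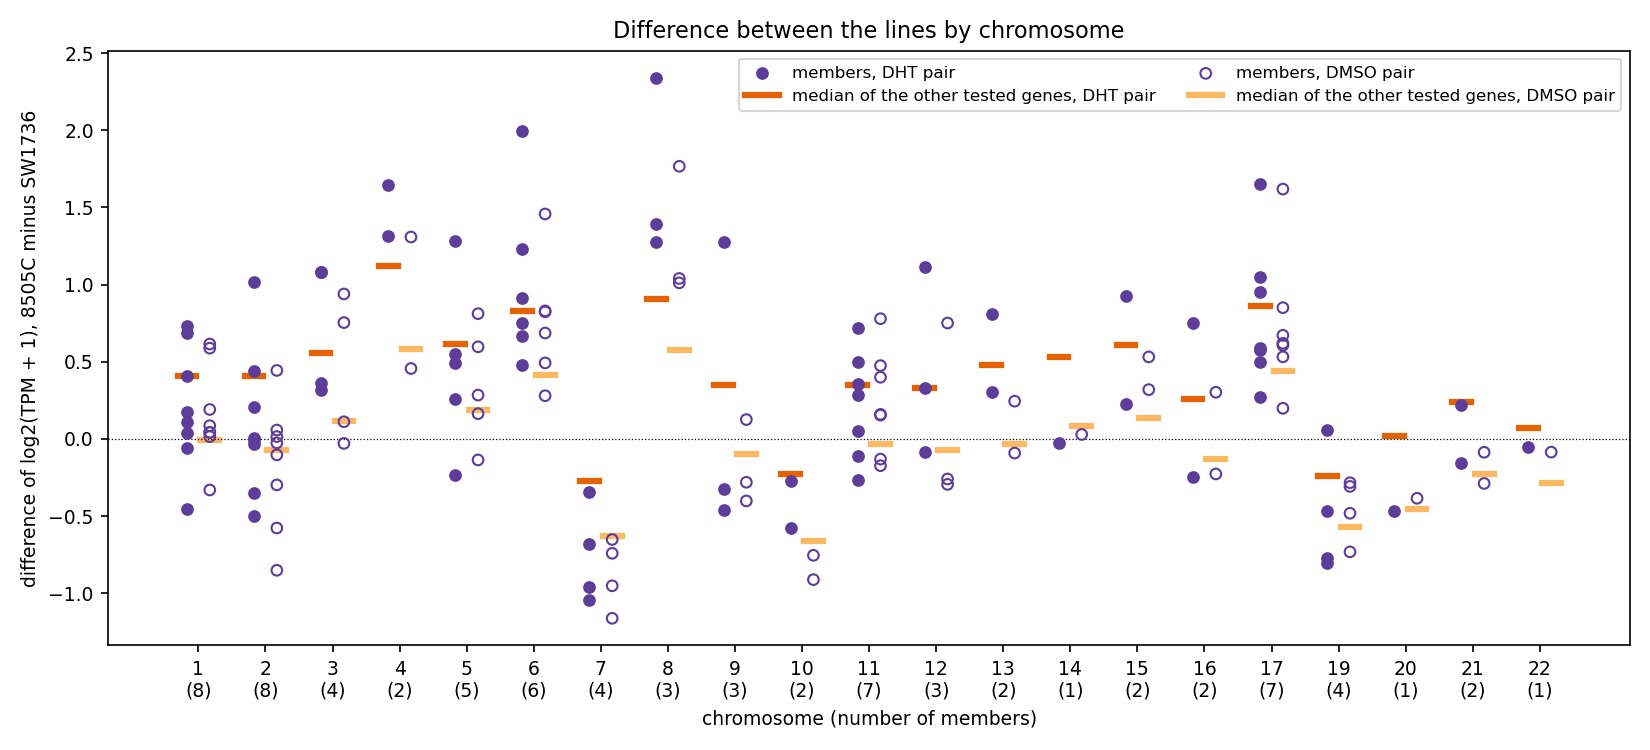
Difference of log2(TPM + 1), 8505C minus SW1736, of each member by chromosome, with DHT (filled) and with DMSO (open), and the median of the other tested genes of each chromosome as bars (dark for DHT, light for DMSO). Members on chromosomes 6, 8 and 17 are all above 0, and those on chromosome 7 all below, on the same side as the bars. Most of the other tested genes of these chromosomes are on that side too.

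Other genes of mitochondrial translation were read from fixed lists. All 6 mitochondrial ribosomal proteins with other symbols were tested. In SW1736 their median was -0.05, and 1 was at least 1.5-fold lower, where 38.2% of tested genes were. That was PTCD3, a pentatricopeptide repeat protein of the small subunit, with 8.04 TPM in SW1736 with DHT and 21.3 with DMSO (-1.30), and 24.2 TPM in 8505C with DHT and 26.4 with DMSO (-0.12). CHCHD1 was -0.42 in SW1736, and GADD45GIP1 (0.11) and DAP3 (0.09), a GTP-binding protein of the small subunit, were the highest. ICT1, the older symbol of MRPL58, a peptidyl-tRNA hydrolase built into the large subunit, had 81.6 TPM with DHT and 77.5 with DMSO in SW1736, and 104 TPM with DHT and 97.8 with DMSO in 8505C.

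Genes for the assembly of the ribosome lay near the tested genes as a whole in SW1736. Of 25 assembly and RNA modification genes, all tested, 9 were at least 1.5-fold lower with DHT (38.2% of tested genes were) and none higher, with a median of -0.40 against -0.42. GTPBP10, a GTPase of large-subunit assembly, had 4.33 TPM with DHT and 10.9 with DMSO (-1.16), and METTL15, a methyltransferase for the small ribosomal RNA, had 2.67 TPM with DHT and 5.85 with DMSO (-0.90). MTG1 (-0.003) and MPV17L2 (-0.03) were the highest of the list. In 8505C 1 of the 25 was at least 1.5-fold lower, where 0.538% of tested genes were. That was MTERF4, which brings the methyltransferase NSUN4 to the ribosome, with 14.5 TPM with DHT and 28.1 with DMSO (-0.91), and it was -0.87 in SW1736, at 13.1 TPM with DHT and 24.9 with DMSO.

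Translation factors gave a similar count. Of 16 tested genes 7 were at least 1.5-fold lower in SW1736, where 38.2% of all tested genes were, with a median of -0.53 against -0.42. None was in 8505C, where 0.538% of all tested genes were, with a median of -0.08 against -0.03. GUF1, the counterpart of the bacterial elongation factor LepA, had 7.16 TPM in SW1736 with DHT and 15.3 with DMSO (-1.003), and GFM2, a ribosome recycling factor, had 28.5 TPM with DHT and 53.6 with DMSO (-0.89). TUFM, the elongation factor Tu of mitochondria, had 272 TPM with DHT and 265 with DMSO (0.04), and SLIRP, the partner of LRPPRC in mRNA stability, had 247 TPM with DHT and 238 with DMSO (0.05). In 8505C GFM1, the translocation factor, was the lowest (-0.22) and MRRF the highest (0.10).

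Of 5 genes of mitochondrial transcription, 4 were at least 1.5-fold lower in SW1736, where 38.2% of tested genes were, with a median of -0.98 against -0.42. MTERF1, a transcription termination factor, had 2.32 TPM with DHT and 12.8 with DMSO (-2.06). TFAM, which packages mitochondrial DNA and is needed for its transcription, had 25.8 TPM in SW1736 with DHT and 51.8 with DMSO (-0.98), and 32.8 TPM in 8505C with DHT and 46.6 with DMSO (-0.49). POLRMT, the RNA polymerase itself, was -0.31 in SW1736 and 0.007 in 8505C.

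Of 9 regulators listed for nuclear genes of mitochondria, 8 were tested. GABPA, the DNA-binding subunit of GABP, had 6.20 TPM in SW1736 with DHT and 15.2 with DMSO (-1.17), and 13.4 TPM in 8505C with DHT and 15.5 with DMSO (-0.19). MYC, a transcription factor known to raise ribosome production, had 614 TPM in SW1736 with DHT and 125 with DMSO (2.28), and 208 TPM in 8505C with DHT and 213 with DMSO (-0.03). NRF1 was -0.02 in SW1736 and -0.14 in 8505C, and PPRC1, a coactivator, was 0.25 and 0.10. Whether any of these differences bears on those of the members was not tested.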

How the data were processed

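mRNA was sequenced from 4 libraries, 1 per group, made with the Universal Plus mRNA-Seq kit, per the labels' protocols. The submitters' processing notes name the hg38 build, bcl2fastq 2.20 and StringTie. Not given in the sources used here are the aligner, the annotation, whether strand was used and which release of StringTie was run. The authors deposited 1 gene abundance table per library, whose columns, per the file headers, are TPM, FPKM and coverage for each gene at each locus. Deposited TPM sums to 1000000 per library, so more of some mRNAs lowers the TPM of the others. Deposited FPKM is scaled by fragments and length, and deposited coverage is a read depth that is not scaled by library. Read numbers are unknown, and no counting interval is given.

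TPM of rows with the same identifier were summed. Of 26485 identifiers, 23758 matched a RefSeq symbol, 671 were matched through GENCODE 29, 933 by a synonym and 1123 were not matched, and 19031 were protein-coding. Tested genes were the 11706 averaging 1 TPM or more over the libraries. Of the members, 4 had several rows and 4 overlapped a gene on the same strand (MRPS18B in both counts), which left 70 single-locus members, and 17 overlapped a gene on the other strand. Differences are of log2(TPM + 1), which understates the fold of low genes, and a gene was counted at 1.5-fold. With 1 library per group there is no test within a line. limma 3.58.1 in R 4.3.3 (trend, two-sided) fitted line and treatment, after a test on simulated data. mRNA length and GC content came from GENCODE 29. The rest used Python 3.11.15, pandas 2.3.3, numpy 2.4.6, scipy 1.17.1 and matplotlib 3.10.9.

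The members, lists and tests were chosen with earlier results of these data known. Members named were the 5 highest and 5 lowest of each comparison within a line and of the DMSO pair between lines, the 5 most and 5 least abundant, those past 1.5-fold in both pairs of lines, and a panel of paralogs and misnamed members. Of each list the 2 highest and 2 lowest were eligible. MRPS17 falls outside these rules and is named with its chromosome, chosen after its values were seen. Aligned depth was computed from coverage and FPKM. Alternatives were other pseudocounts, filters, thresholds and limma settings, FPKM, median scaling, scaling without cytosolic ribosomal protein genes, single-locus members, and differences relative to the chromosome.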

Additional observations from a re-analysis of the deposited data

How the results depend on the processing

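With 1 library per group there was no replicate number to block on, and the limma fit held line as a term. With FPKM, the members' median difference in SW1736 was 0.0934 with 2 members lower, and between the lines with DHT it was 0.10 with 11 lower. With median scaling it was 0.29 in SW1736 (9 higher, 1 lower) and -0.0680 between the lines with DHT (15 higher, 18 lower), and 8 members were lower in 8505C in both pairs. Both scalings shift all genes of a comparison by construction: the median of all tested genes in SW1736 was -0.42 in TPM, -0.20 in FPKM and 0 when centred. Without cytosolic ribosomal protein genes, 4 members were lower in SW1736, and the sums were 10176 and 10276 TPM in SW1736 with DHT and DMSO and 11144 and 11097 in 8505C. Shares of tested genes past 1.5-fold were not computed for FPKM, median scaling or this scaling.

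At a 2-fold threshold, 1 member was lower in SW1736, where 1823 of the 11706 tested genes were, and 0 were higher in 8505C with DHT, where 32 were. Between the lines with DMSO 6 members were higher and 1 lower, where 1167 and 1480 tested genes were. With DHT 15 members were higher and 1 lower, where 2890 and 1244 tested genes were. In both pairs 6 members were higher and 0 lower, and no share of tested genes was computed. At 1.2-fold, 4 were higher and 30 lower in SW1736, 1 was lower in 8505C, and between the lines 32 were higher and 19 lower with DMSO, and 41 and 16 with DHT. Shares of tested genes in each direction were not computed at 1.2-fold. limma without the trend called 10 members for line, the cause was not tested, and 23 to 29 under the other settings. It called 0 for treatment under each setting.

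Single-locus members summed to 6858 and 7499.6 TPM in SW1736 with DHT and DMSO and to 7970 and 7957 in 8505C, with fewer genes. Their large to small ratios were 2.11 and 2.15 in SW1736 with DHT and DMSO, and 2.18 and 2.17 in 8505C. With MRPS18A and MRPS30 in the large subunit, the 8505C ratios were 2.196 and 2.21. Relative to the chromosome, chosen after the data were seen, 11 members were higher and 1 lower with DMSO, and 7 and 10 with DHT, with a median of -0.17. No share of tested genes was computed on that scale. Of 1512 values of 48 named members under the alternatives, 1354 stayed the same by the rule, 120 moved and 38 no longer passed the threshold. None that was at least 1.5-fold in the main setting changed sign. A change of sign in a smaller value was not counted separately. Coverage was lowest for MRPL19 in both SW1736 libraries and for MRPL35 in both 8505C libraries. In 8505C MRPL43 was also low, at 35.8 with DHT and 26.4 with DMSO.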

Other observations

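Identifiers related to the members but outside the symbol rule were low. MRPL45P2, a pseudogene of MRPL45, had 9.21 TPM in 8505C with DHT and 10.3 with DMSO, against 3.75 in SW1736 with DHT and 3.05 with DMSO, higher in 8505C as MRPL45 was. How reads of the 2 copies were divided is not given in the sources used here. MRPS31P5 had 1.37 TPM in SW1736 with DHT and 2.33 with DMSO, and 2.26 in 8505C with DHT and 2.70 with DMSO, where MRPS31 itself had 16.03 to 35.5 TPM. URGCP-MRPS24 had 2.01 TPM in SW1736 with DHT and 5.73 with DMSO, and 2.42 in 8505C with DHT and 3.05 with DMSO. MRPL42P5 and MRPL23-AS1 stayed below 1 TPM in all 4 libraries.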
